A study of Mus musculus with 25 samples.

Results

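The MHC class II antigen presentation genes described here are the α and β chain genes *H2-Aa*, *H2-Ab1* and *H2-Eb1*, the peptide exchange genes *H2-DMa* and *H2-DMb1*, the invariant chain gene *Cd74* and the regulator gene *Ciita*. They were picked as a named pathway, by gene symbol and with no threshold on a measured value, and each symbol matched 1 Ensembl gene in the files. They are 7 of the 48795 genes measured, and all 7 passed the filter on low counts, as did 15625 genes in all. RNA came from liver or liver tumors of male C57BL/6J mice, an inbred strain, and 25 libraries of polyadenylated RNA fall into 5 groups. nonDEN-L-CD (n = 3) is liver of untreated mice on a control diet (CD), and nonDEN-L-WD (n = 4) is liver of untreated mice on a western-like diet (WD). DEN-L-CD (n = 4) is liver of mice given diethylnitrosamine (DEN, a carcinogen activated in hepatocytes) and the control diet. DEN-PT-WD (n = 8) is the liver tissue around tumors of mice given DEN and the western-like diet, and DEN-T-WD (n = 6) is tumor tissue of such mice. DEN was injected into the peritoneum at 25 mg/kg at 2 weeks of age, and the diets began at weaning. Tissue was taken at 36 to 39 weeks of age, 36 weeks being the age given for the sequenced tissue. Tumors of DEN-L-CD mice were too small to be cut out according to the study, so this liver can hold small tumors, and the labels do not tie a tumor library to a peritumoral library of the same mouse.

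MHC class II molecules carry peptides from proteins taken up by a cell to its surface, where CD4+ T cells read them. The α chain from *H2-Aa* pairs with the β chain from *H2-Ab1* to form I-A. *H2-Eb1* encodes the β chain of I-E, which C57BL/6 mice do not assemble because a promoter deletion silences the I-E α chain. The invariant chain, from *Cd74*, fills the groove of a new molecule and guides it to endosomes, and the heterodimer of *H2-DMa* and *H2-DMb1* products exchanges the last invariant chain fragment for an antigen peptide. *Ciita* encodes the coactivator that switches these genes on together. It does not bind DNA itself but docks on the RFX, CREB and NF-Y proteins that sit on a conserved row of promoter elements, among them the X box and the Y box. In liver, dendritic cells, B cells and macrophages, Kupffer cells among them, are the known carriers of class II, and hepatocytes express little of it.

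The genes on chromosome 17 number 5 and lie within 197134 bases of each other in the mouse build GRCm38, and all 7 genes are protein-coding. *H2-DMa* (ENSMUSG00000037649) is at chr17:34119541-34139101, *H2-DMb1* (ENSMUSG00000079547) at chr17:34153072-34160230 and *H2-Ab1* (ENSMUSG00000073421) at chr17:34257689-34269419, all on the plus strand. *H2-Aa* (ENSMUSG00000036594) is at chr17:34282744-34287823 on the minus strand, and *H2-Eb1* (ENSMUSG00000060586) at chr17:34305867-34316674 on the plus strand. *Ciita* (ENSMUSG00000022504) is on chromosome 16 at 10480059 to 10528418, on the plus strand, and *Cd74* lies elsewhere. The promoters below are printed because they hold words of the X and Y boxes, the elements named above, which no measurement here tests. The RefSeq sequences (GRCm38.p6, 250 bases before to 50 after each annotated start) held both the word GNAACT, from the core of the X box, and the word TGATTGG, from the Y box, at like spacing in *H2-Aa*, *H2-Eb1* and *H2-DMb1*. Each sequence is written 5′ to 3′ on the gene's own strand, and the capitals mark these words.
H2-Aa: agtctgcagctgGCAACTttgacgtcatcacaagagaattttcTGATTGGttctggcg
H2-Eb1: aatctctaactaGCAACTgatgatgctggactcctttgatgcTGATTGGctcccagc
H2-DMb1: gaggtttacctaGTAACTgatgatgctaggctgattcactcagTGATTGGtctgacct
They are chr17:34287859-34287916 on the minus strand, chr17:34305764-34305820 on the plus strand and chr17:34153085-34153142 on the plus strand. RefSeq starts *H2-DMb1* 119 bases away from the nearest start in the annotation used for the gene positions above, so its stretch lies before the RefSeq start but inside that gene interval. The words are 25, 24 and 25 bases apart in the same order. The *H2-Aa* stretch also holds TGACGTCA, the CREB consensus, just after its X word and overlapping neither other word. Of 32851 promoter windows of 300 bases, searched on both strands, 42.8% held GNAACT, 7.82% TGATTGG and 1.79% TGACGTCA, while 0.28% (92 windows) held the first word and then the second on the same strand with 15 to 45 bases between. The words were picked after these promoters had been read, so the match is a description. *H2-Eb2*, a further class II β chain gene, held the ordered pair, and the windows of *H2-DMa*, *H2-Oa*, *H2-Ob* and *H2-DMb2* did not. *H2-Ab1*, *Cd74* and *Ciita* were not searched.

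The total of expected counts (RSEM's estimate of reads per gene) ran from 21530083 to 38074411 over the libraries. Hepatocyte markers summed to between 30606 and 132663 TPM (RSEM's length-corrected share of all transcripts) in every library, so hepatocyte RNA was present in all. The sum was 42424 to 71085 TPM in the liver libraries, and all tumors lay outside that range. DEN-T-WD replicate 5 stood apart from the other tumors, with the lowest hepatocyte marker sum of all libraries (30606 TPM against at least 111464 TPM in the other 5 tumors) and the highest class II sum. In 7 libraries pancreas markers summed to more than 1000 TPM, up to 5775 TPM in DEN-PT-WD replicate 1, and values without these 7 are given where they matter. The labels do not say that libraries of a group came from separate mice, so p-values measure the spread between these libraries. In TPM the whole transcriptome shifts between groups. For DEN-PT-WD against nonDEN-L-CD the median gene is 0.35 higher on the log2(TPM + 0.1) scale and 90.7% of called genes are higher, against 0.041 and 76.8% with counts normalized by TMM, so TPM is used for levels and the fold changes come from the normalized counts.

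The class II chains had the same order of median levels, lowest in untreated liver on the control diet, then DEN-L-CD, nonDEN-L-WD and DEN-PT-WD, and highest in tumors. Neighbours in this order did not all differ beyond their spread, as the comparisons given later show. *H2-Ab1*, the I-A β chain gene, had a level of 12.9, 15.6 and 24.8 TPM in nonDEN-L-CD replicates 1 to 3, 31.4, 37.4, 37.8 and 14.2 TPM in nonDEN-L-WD replicates 1 to 4, and 26.6, 34.2, 19.0 and 22.4 TPM in DEN-L-CD replicates 1 to 4, the order kept below. Its lowest, median and highest levels were 34.2, 59.1 and 76.6 TPM in DEN-PT-WD and 50.8, 83.4 and 168 TPM in DEN-T-WD. Both groups with DEN and the western-like diet lay above nonDEN-L-CD without overlap, whereas the liver groups with only 1 of these factors overlapped it.

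*H2-Aa*, the I-A α chain gene, was higher throughout, at 25.9, 32.7 and 41.8 TPM in nonDEN-L-CD, 54.8, 63.2, 70.4 and 36.0 TPM in nonDEN-L-WD, and 56.6, 71.6, 33.3 and 39.1 TPM in DEN-L-CD. The lowest, median and highest levels were 60.5, 105 and 152 TPM in DEN-PT-WD and 101, 150.2 and 315 TPM in DEN-T-WD. Replicate 4 of nonDEN-L-WD, a library over 1000 TPM in pancreas markers, was the lowest of its group for all 7 genes, and in *H2-Aa* it fell inside the nonDEN-L-CD range. *H2-Eb1* tracked *H2-Ab1* closely although its partner chain is missing in this strain. It measured 13.3, 15.9 and 22.3 TPM in nonDEN-L-CD, 30.7, 38.3, 40.1 and 16.3 TPM in nonDEN-L-WD, and 25.9, 34.5, 17.4 and 21.8 TPM in DEN-L-CD. Its lowest, median and highest levels were 35.4, 57.2 and 81.0 TPM around tumors and 54.8, 88.2 and 176 TPM within them. The locus of the I-E α chain, *H2-Ea-ps*, was at 0 counts in all 25 libraries, which allows up to 3 counts in a library by counting error alone.

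*Cd74* (ENSMUSG00000024610, chromosome 18 from 60803848 to 60812652 on the plus strand), the invariant chain gene, was the most abundant of the 7 genes in every group. Its level was 50.9, 53.0 and 71.2 TPM in nonDEN-L-CD, 93.4, 99.2, 115 and 49.6 TPM in nonDEN-L-WD, and 78.5, 100.1, 59.4 and 62.7 TPM in DEN-L-CD. The lowest, median and highest levels were 94.4, 159 and 206 TPM in DEN-PT-WD and 140.4, 228 and 459 TPM in DEN-T-WD. In relative terms it moved least of the 7 from nonDEN-L-CD to DEN-PT-WD.

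The peptide exchange genes were expressed far below the chain genes. *H2-DMa* measured 2.11, 2.14 and 2.50 TPM in nonDEN-L-CD, 3.63, 3.92, 2.85 and 1.55 TPM in nonDEN-L-WD, and 1.98, 2.87, 2.69 and 3.47 TPM in DEN-L-CD. Its lowest, median and highest levels were 4.76, 7.43 and 9.50 TPM in DEN-PT-WD and 4.60, 8.58 and 16.1 TPM in DEN-T-WD. All 8 peritumoral libraries exceeded every library of the other liver groups. *H2-DMa* overlaps *Brd2*, a chromatin gene on the opposite strand, and shares 8.43% of its 50-base words with it, and whether counting used the strand is not given. *Brd2* ranged from 26.2 to 40.5 TPM over all libraries and reached 2863 counts, against at most 345 counts for *H2-DMa*. The part of *Brd2* reads in the *H2-DMa* counts was not tested.

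*H2-DMb1* measured 1.64, 1.40 and 2.71 TPM in nonDEN-L-CD, 4.74, 4.25, 6.04 and 2.54 TPM in nonDEN-L-WD, and 3.38, 5.11, 2.45 and 4.46 TPM in DEN-L-CD. The lowest, median and highest levels were 4.49, 8.08 and 11.6 TPM in DEN-PT-WD and 6.74, 11.1 and 20.4 TPM in DEN-T-WD. The peritumoral range overlapped those of both single-factor groups and cleared that of nonDEN-L-CD. Of its 50-base words, 22.7% also occur in its neighbour *H2-DMb2*, so RSEM's split of reads between the pair is uncertain.

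*Ciita* was the least abundant of the 7, with 14 to 20 expected counts per library in nonDEN-L-CD, and is the gene with the coarsest counting precision. It measured 0.19, 0.15 and 0.19 TPM in nonDEN-L-CD, 0.61, 0.58, 0.54 and 0.36 TPM in nonDEN-L-WD, and 0.49, 0.54, 0.39 and 0.33 TPM in DEN-L-CD. The lowest, median and highest levels were 0.50, 0.95 and 1.24 TPM in DEN-PT-WD and 0.82, 1.34 and 2.62 TPM in DEN-T-WD. *Ciita* was the 1 gene of the 7 whose single-factor groups both lay wholly above nonDEN-L-CD in TPM.

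**Figure D1:**
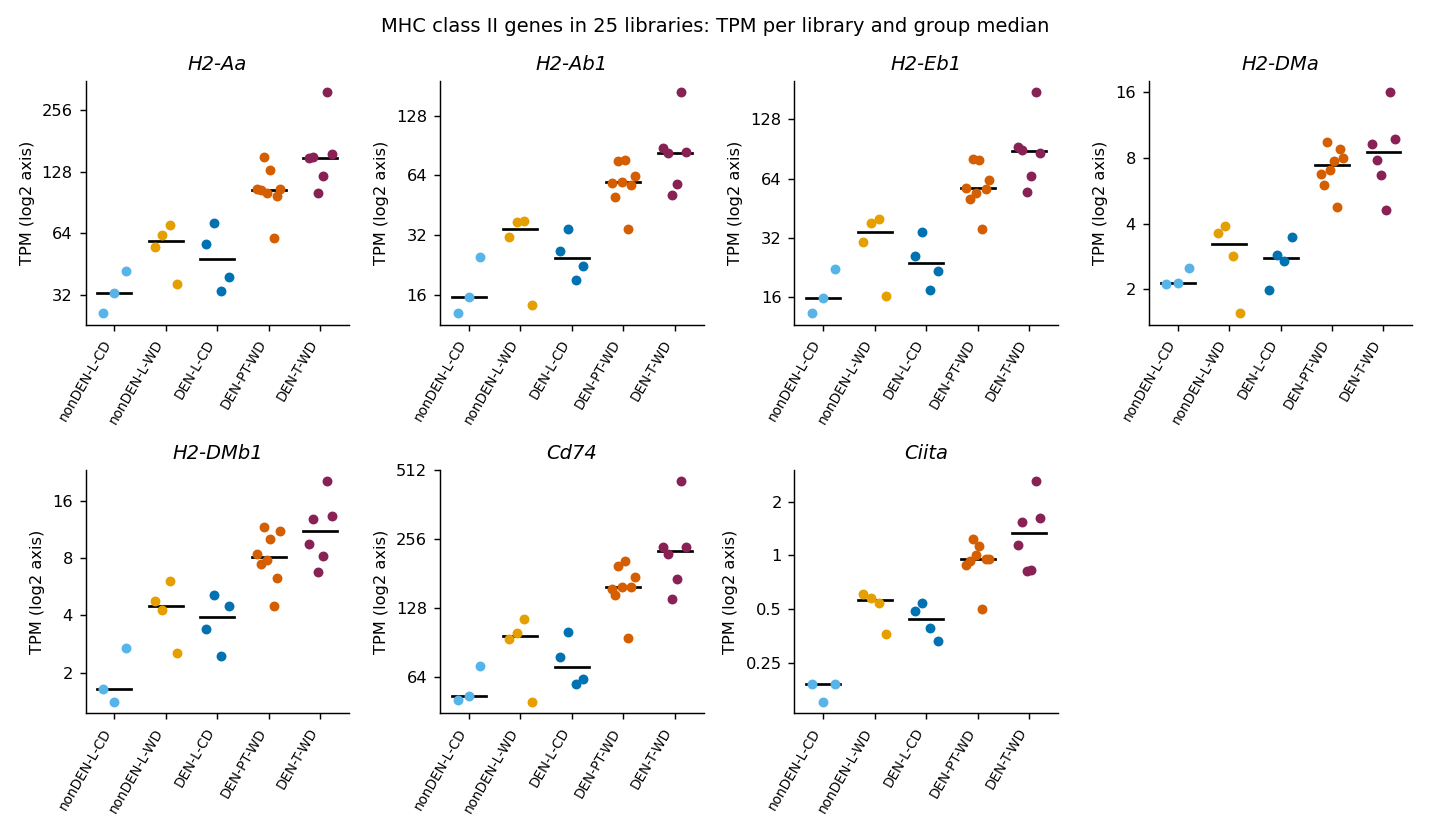
Level of each of the 7 MHC class II genes (TPM, log2 axis) in 25 libraries by group, with a point per library and a line at the group median. The median is lowest in nonDEN-L-CD and highest in DEN-T-WD, that of nonDEN-L-WD lies above that of DEN-L-CD, and the highest tumor point in each panel is DEN-T-WD replicate 5.

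In some groups 1 library was at the same end for most genes. DEN-PT-WD replicate 6, also over 1000 TPM in pancreas markers, was the lowest of the 8 peritumoral libraries for all 7 genes, and DEN-T-WD replicate 5 was the highest of the 6 tumors for all 7. Replicate 5 held between 2.03 and 2.30 times the median of the other tumors, the largest ratio being that of *Ciita* and the smallest that of *H2-Eb1*. In the same library the macrophage and monocyte markers summed to 543 TPM, the leukocyte markers to 114 TPM and the dendritic cell markers to 28.6 TPM, each the highest of all 25 libraries. Their part in its class II level was not tested. Nor can more class II cells be told apart from more class II RNA per cell in bulk tissue.

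To ask what the western-like diet did without DEN, nonDEN-L-WD was compared with nonDEN-L-CD. *Ciita* rose 2.64-fold (log2 fold change 1.40, SE 0.33), and it was the 1 gene of the 7 called, against 3.24% of the 15625 tested genes called higher. Calls here need both an adjusted p no higher than 0.05 and a log2 fold change of 1 or more in size, from edgeR's quasi-likelihood test and Benjamini-Hochberg adjustment over all tested genes, and for *Ciita* the adjusted p was 0.00438. *H2-DMb1* passed the p threshold but not the fold minimum (0.96, SE 0.33, adjusted p = 0.0361 by the same edgeR test), which makes 2 of 7 past the p threshold against 11.2% of tested genes. The other 5 genes had log2 fold changes from 0.46 for *Cd74* to 0.72 for *H2-Eb1* with adjusted p from 0.103 to 0.266, which leaves changes of that size unresolved. The median of the 7 was 0.62, and that of all tested genes 0.013. Without nonDEN-L-CD replicate 3, or without nonDEN-L-WD replicate 4, 2 of the 7 were called. *Ciita* was also the 1 gene of the 7 whose TPM did not overlap between these groups, against 15.3% of tested genes not overlapping and higher. In normalized counts *H2-DMa* did not overlap either, with at most 51.6 in nonDEN-L-CD and at least 54.3 in nonDEN-L-WD and 62.6 in DEN-L-CD. Markers of other cells moved in the same comparison. Called higher were 3 of 7 B cell markers (*Pax5* at 2.81, SE 0.49) and 3 of 10 macrophage and monocyte markers (*Gpnmb* at 3.14, SE 0.89). So were 2 of 11 dendritic cell and 2 of 5 stellate cell markers, against the same 3.24% of tested genes. Of the neutrophil markers 4 of 4 tested were called lower (*Retnlg* at -2.63, SE 0.63), against 2.04% of tested genes called lower. Plasma cell markers had 1 of 4 and bile duct markers 1 of 5 called lower. Their part in the *Ciita* level was not tested.

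DEN without the western-like diet also gave 1 call. In DEN-L-CD against nonDEN-L-CD, *Ciita* rose 2.39-fold (log2 fold change 1.25, SE 0.34, adjusted p = 0.0100 by edgeR's test), and it alone of the 7 was called, against 2.76% of tested genes called higher. It was again the only 1 of the 7 without overlap in TPM, against 17.4% of tested genes. The other 6 ranged from 0.32 for *Cd74* to 0.77 for *H2-DMb1*, with adjusted p from 0.0973 to 0.454. Without nonDEN-L-CD replicate 2, no gene of the 7 was called. In the same comparison 6 of 7 B cell markers were called higher, with a median log2 fold change of 1.84 and *Pax5*, a B cell transcription factor, at 3.47 (SE 0.49). Of the other class II chain genes 2 of 4 were called, *H2-Oa* (2.08, SE 0.54) and *H2-Ob* (1.42, SE 0.35), while macrophage and dendritic cell markers had 1 of 10 and 1 of 11 called. The part of B cells in the *Ciita* level was not tested. The mean read length implied by the files' effective gene lengths was 73.84 to 73.98 bases in DEN-L-CD and 74.06 to 74.21 bases in both nonDEN groups, and this small difference between libraries and DEN treatment cannot be told apart. DEN-PT-WD, at 73.74 to 74.05 bases, also lay below both nonDEN groups, so the same limit holds where it is compared with them. The diet comparison and the DEN comparison share the nonDEN-L-CD libraries. Set directly against each other, DEN-L-CD and nonDEN-L-WD had none of the 7 genes called, with log2 fold changes from -0.22 to -0.016, standard errors of 0.23 to 0.30 and adjusted p of 0.818 to 0.990 by edgeR's test. None of the 7 had an unadjusted p under 0.05 there, and DESeq2 also called none. Of the 15625 tested genes edgeR called 0.192% higher and 9 genes lower.

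In DEN-PT-WD, the liver with both DEN and the western-like diet, all 7 genes were higher than in nonDEN-L-CD. DEN, diet, tissue next to a tumor and the small difference in read length cannot be told apart here. DEN-PT-WD exceeded nonDEN-L-CD in every gene of the 7, against 10.2% of tested genes called higher, and none of the 7 overlapped in TPM, against 33.1% of tested genes. *Ciita* rose 4.13-fold (log2 fold change 2.05, SE 0.31, adjusted p = 2.34e-05 by edgeR's test). The exchange genes came next, *H2-DMb1* at 3.46-fold (1.79, SE 0.31) and *H2-DMa* at 2.94-fold (1.55, SE 0.24). The chain genes rose 2.72-fold for *H2-Eb1* (1.44, SE 0.30), 2.60-fold for *H2-Ab1* (1.38, SE 0.31) and 2.49-fold for *H2-Aa* (1.32, SE 0.29). *Cd74* rose least, 2.15-fold (1.10, SE 0.27, adjusted p = 0.00207 by edgeR's test). The median of the 7 was 1.44, against 0.041 for all tested genes. All 7 stayed called whichever library was left out, and also without the 7 libraries high in pancreas markers, where the values ran from 1.18 for *Cd74* to 2.29 for *Ciita*.

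Liver with both factors was then set against both single-factor groups, comparisons that share the peritumoral libraries. DEN-PT-WD is tissue cut from around tumors and DEN-L-CD is liver from which no tumor was cut, so in these comparisons and in the interaction the second factor and tissue next to a tumor cannot be told apart. Against DEN-L-CD, *H2-DMb1* (log2 fold change 1.02, SE 0.26) and *H2-DMa* (1.00, SE 0.20, adjusted p = 0.00475 by edgeR's test) were called, 2 of 7 against 1.52% of tested genes called higher. The other 5 ranged from 0.78 to 0.95 and passed the p threshold without the fold minimum, so that all 7 passed it, against 6.8% of tested genes. The count turned on single libraries. None of the 7 was called without DEN-L-CD replicate 4, DEN-PT-WD replicate 3 or DEN-PT-WD replicate 8, and 1 was called without DEN-L-CD replicate 1 or 3, DEN-PT-WD replicate 2, 5 or 7 or nonDEN-L-CD replicate 1. Without DEN-PT-WD replicate 6 there were 3, and without DEN-L-CD replicate 2 there were 4. The fold itself moved less, since over all fits run *H2-DMa* stayed between 0.86 and 1.38 (adjusted p of at most 0.0227) and *H2-DMb1* between 0.91 and 1.19 (at most 0.0630). *H2-DMa* and *H2-Eb1* did not overlap in TPM, against 21.2% of tested genes, but in normalized counts *H2-Eb1* overlapped, with 725 in DEN-PT-WD replicate 6 and 824 in DEN-L-CD replicate 2.

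Against nonDEN-L-WD, none of the 7 reached the call, against 2.36% of tested genes called higher. *H2-DMa* came closest (0.99, SE 0.20, adjusted p = 0.00437 by edgeR's test), and *H2-DMb1* also passed the p threshold (0.83, SE 0.25, adjusted p = 0.0347), together 2 of 7 against 7.5% of tested genes. The other 5 had values of 0.64 to 0.77 with adjusted p of 0.0601 to 0.0832, and unadjusted p was under 0.05 for all 7 genes, while DESeq2 called none. Leaving out 1 library gave 0 to 2 calls, 2 of them without nonDEN-L-WD replicate 3 and 1 without nonDEN-L-WD replicate 1 or 2 or DEN-PT-WD replicate 1, 4 or 6. *H2-DMa* alone did not overlap in TPM, against 9.74% of tested genes. In the same comparison 3 of 10 macrophage and monocyte markers, 2 of 7 T cell markers, 1 of 11 dendritic cell markers and 0 of 7 B cell markers were called higher, and their part in the class II values was not tested. The interaction of DEN with diet sets the difference between DEN-PT-WD and nonDEN-L-CD against the sum of the single-factor differences on the log2 scale. It was not called for any of the 7, against 1.57% of tested genes called higher and 185 of 15625 called lower. Its estimates ran from -0.61 (SE 0.41) for *Ciita* to 0.43 (SE 0.32) for *H2-DMa*, with adjusted p of 0.377 to 0.958 by edgeR's test. No unadjusted p of the 7 was under 0.05 in it, and DESeq2 called none. With standard errors of 0.32 to 0.42, departures larger than these estimates could also have gone undetected.

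**Figure D2:**
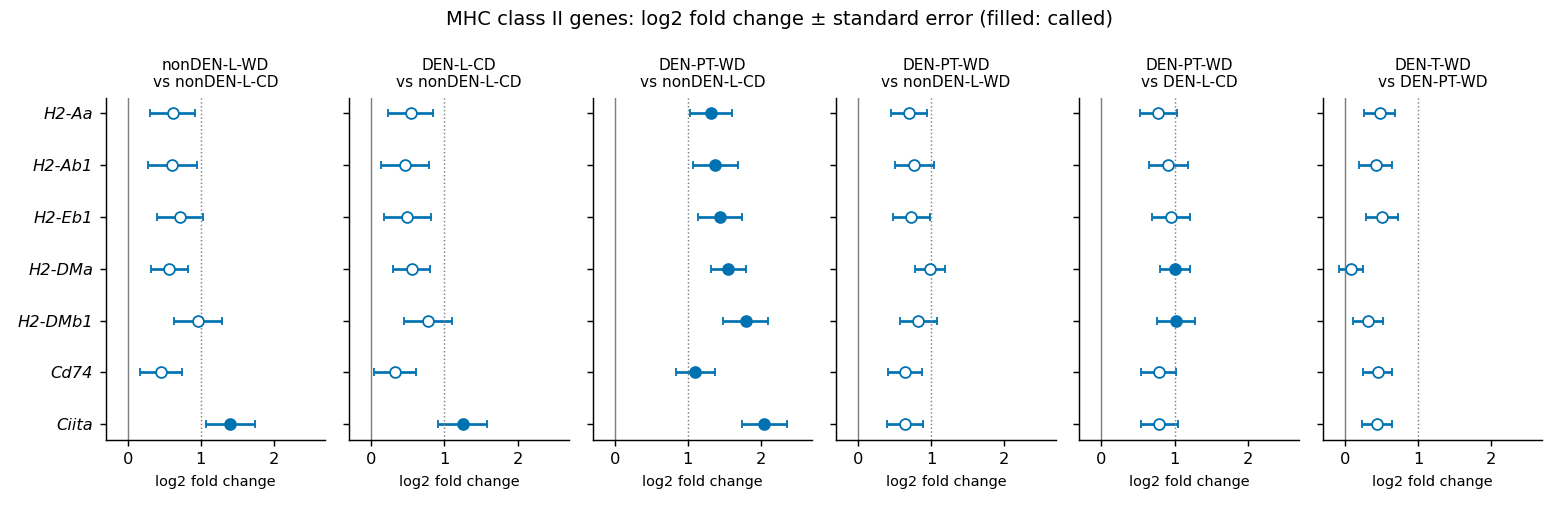
Log2 fold change of each gene (points) with its standard error (bars) in 6 comparisons, filled where called, with the dotted line at the fold minimum of 1. *Ciita* is filled in both single-factor comparisons, all 7 genes in DEN-PT-WD against nonDEN-L-CD, and none in DEN-T-WD against DEN-PT-WD.

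Tumors were then set against the liver tissue around them. None of the 7 genes was called in DEN-T-WD against DEN-PT-WD, against 4.81% of tested genes called higher, and all 7 overlapped in TPM, against 8.36% of tested genes not overlapping. The log2 fold changes were 0.51 (SE 0.21) for *H2-Eb1*, 0.48 (SE 0.21) for *H2-Aa*, 0.45 (SE 0.20) for *Cd74*, 0.44 (SE 0.21) for *Ciita*, 0.42 (SE 0.23) for *H2-Ab1*, 0.31 (SE 0.21) for *H2-DMb1* and 0.086 (SE 0.17) for *H2-DMa*. Adjusted p ran from 0.0662 to 0.726 by edgeR's test, unadjusted p was under 0.05 for 4 of the 7 (*H2-Eb1*, *H2-Aa*, *Cd74* and *Ciita*), and DESeq2 called none. Without DEN-T-WD replicate 5 the values fell to between -0.12 for *H2-DMa* and 0.27 for *H2-Eb1*, with adjusted p of at least 0.283.

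Against every liver group without both factors, tumors were higher in all 7 genes and none of the 7 overlapped. In DEN-T-WD against nonDEN-L-CD the log2 fold changes ran from 1.55 (SE 0.28) for *Cd74* to 2.49 (SE 0.32) for *Ciita*, a 5.61-fold difference for the latter, with all 7 called against 14.5% of tested genes called higher and 44.5% not overlapping. Against DEN-L-CD they ran from 1.09 to 1.45, with all 7 called against 9.68% of tested genes and 41.7% not overlapping. Against nonDEN-L-WD they ran from 1.07 to 1.23, with all 7 called against 10.4% of tested genes and 32.1% not overlapping. These 3 comparisons share the tumor libraries. The last rests on the fold minimum, because without DEN-T-WD replicate 5 none of the 7 was called and the values were 0.85 to 1.00, with adjusted p of 0.000222 to 0.00304 by edgeR's test. It gave 3 calls without nonDEN-L-WD replicate 4, and 3 without the libraries high in pancreas markers. Against DEN-L-CD 5 of the 7 were called without DEN-T-WD replicate 5. Markers of class II carrying cells moved alongside. Against nonDEN-L-CD 7 of 7 B cell, 7 of 11 dendritic cell and 6 of 10 macrophage and monocyte markers were called higher. Against nonDEN-L-WD 0 of 7, 4 of 11 and 5 of 10 of these were called, with 3 of 4 neutrophil markers, and against DEN-L-CD 0 of 7, 4 of 11 and 4 of 10. Kupffer cell markers had 2 of 7 called lower in each of the 3 comparisons, against 5.82%, 5.24% and 4.58% of tested genes called lower. The part of these cells in the tumor levels was not tested.

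Ratios between the genes within a library do not depend on its depth or scaling, and those between chain genes varied little. *H2-Eb1* to *H2-Ab1* ran from 0.900 to 1.15 and *H2-Aa* to *H2-Ab1* from 1.66 to 2.54 over all 25 libraries, in TPM, although the level of *H2-Ab1* itself ran from 12.9 to 168 TPM. The geometric mean of the *Cd74* to *H2-Ab1* ratio was 2.72 in DEN-PT-WD and 3.38 in nonDEN-L-CD (exact permutation test, two-sided, n = 8 and 3, p = 0.0242, adjusted 0.121 over 10 tests). That of *Ciita* to *H2-Ab1* was 0.0159 and 0.0103 (exact permutation p = 0.0364, adjusted 0.121). In DEN-T-WD against DEN-PT-WD the ratio of *H2-Eb1* to *H2-Ab1* was 1.07 and 1.00 (exact permutation p = 0.00999, adjusted 0.0999). None of the 10 ratio tests passed an adjusted p of 0.05, and 1 did without DEN-PT-WD replicate 3. Against the 3 nonDEN-L-CD libraries the exact test has few splits. Even at its smallest possible p, 1 such test alone could not pass the adjustment over 10 tests. A failure to pass there does not show that a ratio was unchanged.

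**Figure D3:**
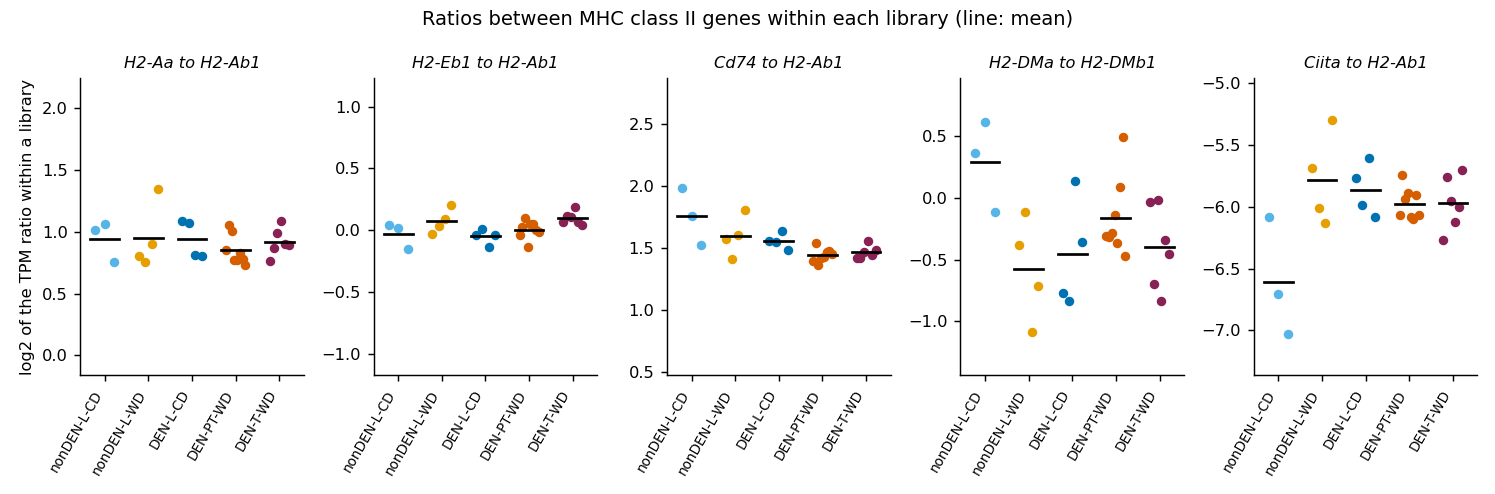
Log2 of the ratio of 2 genes' TPM in each of 25 libraries by group, with a line at the group mean and the same span on each vertical axis. The ratio of *H2-Eb1* to *H2-Ab1* stays near 1 (0 on the log2 scale) in all groups, and *Ciita* to *H2-Ab1* has its lowest group mean in nonDEN-L-CD.

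The other genes of the pathway moved with the 7 only in part. In DEN-PT-WD against nonDEN-L-CD the 4 tested of the other class II chain genes all rose: *H2-Eb2* (log2 fold change 2.33, SE 0.82), *H2-Oa* (1.92, SE 0.50) and *H2-Ob* (1.30, SE 0.32), whose products inhibit peptide exchange in B cells, and *H2-DMb2* (1.28, SE 0.39). They were scarce, at 10.2 to 32.5 mean normalized counts in DEN-PT-WD, and 2 of the 4 were called without the libraries high in pancreas markers. Among the 7 promoter factors none was called higher and 1 lower, *Rfxank*, a subunit of the RFX complex, against 3.08% of tested genes called lower (-1.08, SE 0.13, adjusted p = 9.13e-07 by edgeR's test). *Rfx5* had 0.43 (SE 0.13) and *Rfxap* -0.53 (SE 0.11). *Rfxank* was also called lower in DEN-L-CD against nonDEN-L-CD (-1.09, SE 0.15, against 1.93% of tested genes called lower), where *Ciita* was higher. In nonDEN-L-WD against nonDEN-L-CD the same gene had -0.90 (SE 0.15).

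Of the interferon γ signalling genes, a route that induces *Ciita*, 0 of 8 tested were called in DEN-PT-WD against nonDEN-L-CD, where 10.2% of all tested genes were called higher, and 4 passed the p threshold upward, against 23.5% of tested genes, with *Irf8* at 0.76 (SE 0.18). *Ifng* itself had at most 4 counts in any library and was not tested. Of 9 endosomal processing genes 1 was called, *Ctss*, the protease that trims the invariant chain (1.03, SE 0.28), and 6 passed the p threshold upward against the same 23.5%. Of 3 turnover genes 1 was called, *March1*, a ubiquitin ligase for class II molecules (1.19, SE 0.34). Of the costimulation and checkpoint genes 4 of 5 tested were called: *Cd40* (2.52, SE 0.46), *Icosl* (1.66, SE 0.27), *Cd274* (1.17, SE 0.30) and *Cd86* (1.09, SE 0.27). *Cd40* was also the 1 gene of that list called in tumors against peritumoral liver (1.43, SE 0.27). Class I presentation, which shows peptides made inside the cell, had 0 of 12 called, with a median log2 fold change of 0.23 against 1.44 for the 7 class II genes, and *Psmb9*, an immunoproteasome subunit, at 0.63 (SE 0.17).

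Markers of cells known to carry class II moved in the same comparison. All 7 B cell markers were called higher in DEN-PT-WD against nonDEN-L-CD, against 10.2% of tested genes, led by *Pax5* (log2 fold change 3.38, SE 0.46), *Fcmr* (2.19, SE 0.40), *Cd79a* (1.98, SE 0.47), *Ms4a1* (1.89, SE 0.67) and *Cr2* (1.82, SE 0.44). Without the libraries high in pancreas markers 5 of the 7 were called. In DEN-PT-WD against DEN-L-CD, where all 7 class II genes passed the p threshold, the median of the B cell markers was -0.092 and none was called. Called higher there, against 1.52% of tested genes, were 4 of 10 macrophage and monocyte markers and 1 of 11 dendritic cell markers. So were 2 of 5 stellate cell and 1 of 5 bile duct markers. The B cell markers summed to 0.83 to 2.22 TPM in nonDEN-L-CD and 4.29 to 8.96 TPM in DEN-PT-WD. The 7 class II genes summed to 107 to 166 TPM and 234 to 526 TPM. A marker sum does not measure the share of class II RNA that a cell type holds. Of 10 macrophage and monocyte markers 5 were called, *Gpnmb* (5.19, SE 0.86), *Cx3cr1* (3.34, SE 0.53), *Trem2* (3.23, SE 0.46), *Ccr2* (1.98, SE 0.37) and *Cd68* (1.40, SE 0.26), and 7 without the libraries high in pancreas markers. The list summed to 97.8 to 164 TPM in nonDEN-L-CD and 169 to 400.4 TPM in DEN-PT-WD. Of 11 dendritic cell markers 3 were called, the integrin gene *Itgax* (2.86, SE 0.37), *Ccr7* (2.47, SE 0.49) and *Flt3* (1.37, SE 0.33), and the list summed to 6.35 to 7.10 TPM and 12.2 to 19.1 TPM. *Itgax* and *Ccr7* were already called in nonDEN-L-WD against nonDEN-L-CD (1.51, SE 0.39 and 1.90, SE 0.53). No marker of these lists was at 0 in all libraries of a group. The part of these cells in the class II levels was not tested.

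Resident Kupffer cell markers parted from class II in tumors. In DEN-PT-WD against nonDEN-L-CD 1 of 7 was called higher, the scavenger gene *Cd5l* (1.36, SE 0.30), against 10.2% of tested genes. Without the libraries high in pancreas markers 3 of 7 were. In DEN-T-WD against DEN-PT-WD 4 of 7 were called lower, against 3.09% of tested genes, with *Marco* at -2.04 (SE 0.53), *Timd4* at -1.68 (SE 0.28), *Clec4f* at -1.04 (SE 0.15) and *Folr2* at -1.04 (SE 0.22). The same number was lower without DEN-T-WD replicate 5. The list summed to 189 to 457 TPM in DEN-PT-WD and 147 to 275 TPM in DEN-T-WD, while none of the 7 class II genes was lower at the threshold. B cell, dendritic cell and macrophage markers had no call in that comparison, and 1 of the 11 dendritic cell markers was called without the libraries high in pancreas markers. Bile duct markers had 2 of 5 called higher there, *Spp1* (1.97, SE 0.27) and *Sox9* (1.38, SE 0.22), against 4.81% of tested genes, while 3 of the 5 had a log2 fold change above 0 and the median of the list was 0.26. Hepatocyte markers had *Apoa1* higher (1.04, SE 0.24) and *Cyp2e1* lower (-1.67, SE 0.17), with 3 higher without DEN-T-WD replicate 5 and 0 higher without the libraries high in pancreas markers.

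The remaining lists in DEN-PT-WD against nonDEN-L-CD are read against 10.2% of tested genes called higher and 3.08% called lower, and 1 call in a list of 4 or 5 genes says little against such shares. T cell markers had 2 of 7 called higher (*Cd8a* at 2.74, SE 0.66, and *Cd8b1* at 2.30, SE 0.54), and general leukocyte markers 2 of 4 (*Coro1a* at 1.15, SE 0.26, and *Laptm5* at 1.13, SE 0.26). Neutrophil markers had 4 of 4 tested called lower, with *Retnlg* at -1.99 (SE 0.50), and plasma cell markers 1 of 4 lower, *Derl3*, at 349 mean normalized counts in nonDEN-L-CD, which was not called without the libraries high in pancreas markers. Of the neutrophil markers 3 were still lower without them. Stellate cell markers had 2 of 5 higher, the collagens *Col1a1* (2.12, SE 0.33) and *Col3a1* (2.10, SE 0.26), and bile duct markers 1 of 5 higher, *Spp1* (2.07, SE 0.39). Sinusoidal endothelial, hepatocyte and pancreas markers had none called of 5, 5 and 9.

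**Figure D4:**
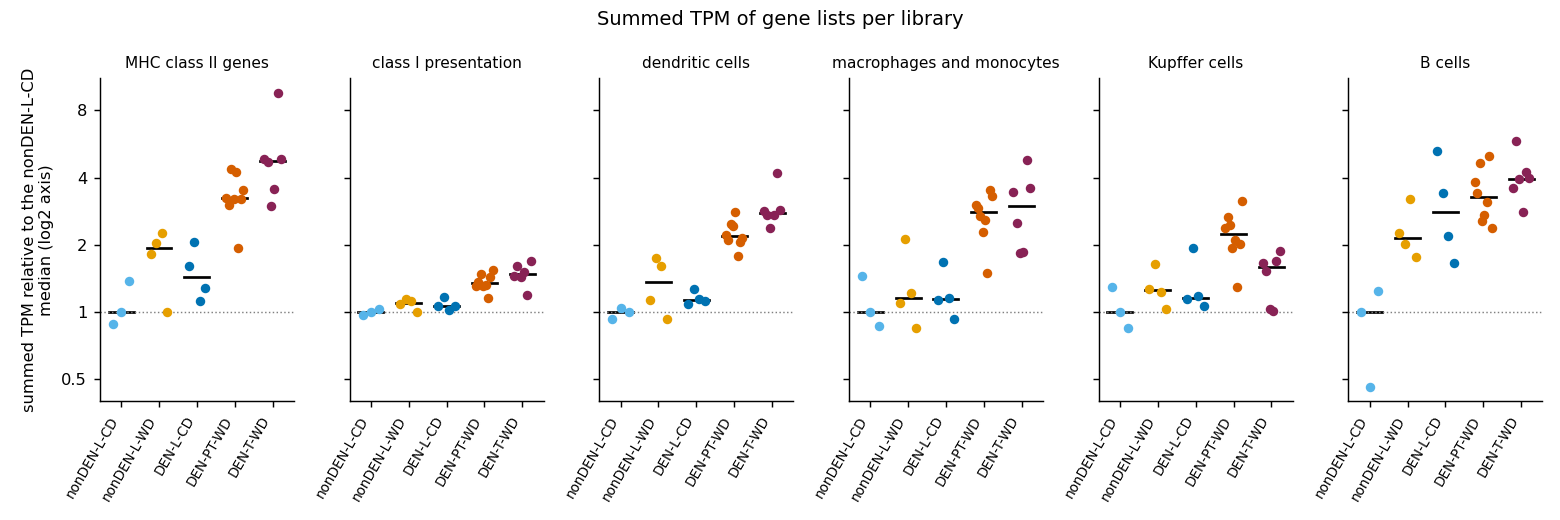
Summed TPM of the 7 MHC class II genes and of 5 marker or pathway lists in each library, divided by the median of nonDEN-L-CD for that list (log2 axis), with a line at each group median. Class II, macrophage and dendritic cell sums of the peritumoral libraries lie above those of nonDEN-L-CD, and the median Kupffer cell sum is 327 TPM in DEN-PT-WD and 232 TPM in DEN-T-WD.

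Genes outside the pathway were ranked by how closely their level followed class II. Likeness was taken as Pearson's r over the 25 libraries between a gene's log2 CPM and the mean standardized log2 CPM of the 6 genes other than *Ciita*. Libraries share groups and depth, so r is given as a description. The nearest 10 genes outside the 7 were *Gng2* (r = 0.967), the monocyte chemokine receptor *Ccr2* (0.966), *Arhgap30* (0.956), *Elf4* (0.955), *Adcy7* (0.955), *Tnfrsf11a* (0.953), *Csf2ra* (0.953), the adhesion molecule *Vcam1* (0.952), *Parvg* (0.950) and *Gab2* (0.950). With each group centred on its own mean, their r was 0.80 to 0.89. *Ciita*, left out of the mean, had r = 0.943 and ranked 29 of the 15625 tested genes. Of the 6 genes in the mean, *H2-DMa* followed it least (0.957).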

How the data were processed

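RNA was extracted from frozen tissue, libraries were made with a KAPA mRNA HyperPrep kit and read from a single end. Per the labels and the study's methods, the authors used FastQC, STAR and RSEM with GRCm38. The versions of STAR and RSEM, any trimming, the gene annotation and the use of strand are not given in the sources used here. The deposited expected counts are RSEM estimates of reads per gene, not normalized, and the deposited TPM values are length-corrected shares of transcripts. The FPKM values deposited by the authors were not used.

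Expected counts were rounded and tested in edgeR 4.0.16 (R 4.3.3) with glmQLFit and glmQLFTest, TMM normalization and filterByExpr (minimum count 10). All 5 groups entered 1 fit, which gave 10 pairwise comparisons and the interaction, adjusted over 15625 genes. The thresholds are those of the study's methods, which name DESeq2 with fold changes shrunk by apeglm. The fold changes here were not shrunk, so calls near the fold minimum can differ. The members are named by gene symbol and no threshold on a measured value picked them, but they, the gene lists and the tests were chosen with earlier results of these data known. Named genes are the 7 members, the 10 nearest by correlation, and up to 5 called genes of each of 20 other lists, by absolute log2 fold change with at least 10 mean normalized counts in the higher group. Values of *Brd2*, *Ifng*, *Irf8*, *Rfx5*, *Rfxap*, *Psmb9* and *H2-Ea-ps* were given outside that rule, chosen after they were seen. Permutation tests enumerated all splits. The test was checked on simulated counts. Libraries were compared within groups by a chi-square per gene, and none was a copy of another. Depth was 21530083 to 38074411 expected counts per library. Floors cover counting error only.

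Alternatives were DESeq2 1.42.0 (test and size factors), no filter on low counts, only the groups compared, the replicate number as a block, limma 3.58.1 on log2(TPM + 1) and log2(TPM + 0.1), and each library left out. Leaving out the 7 libraries over 1000 TPM in pancreas markers was chosen after seeing the data. Positions come from the GENCODE annotation of GRCm38. Motifs, ratios and correlations were computed in Python 3.11.15.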

Additional observations from a re-analysis of the deposited data

Results flagged for a closer look

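DEN-T-WD replicate 5 stood apart from the other 5 tumors in *H2-Aa* (315 TPM), *H2-Ab1* (168 TPM), *H2-Eb1* (176 TPM) and *Cd74* (459 TPM). Its gap to the next tumor was 0.743, 0.683, 0.690 and 0.701 of the range of the 6 tumors, above the critical value of Dixon's test for 6 samples. Of 48 groups tested in this way 4 stood out, all through this library, and chance alone marks about 1 in 20.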

How the results depend on the processing

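The call of all 7 genes against nonDEN-L-CD, in tumors as in peritumoral liver, held in every fit with 1 library left out, and limma on log2(TPM + 1) gave 6 for peritumoral liver. For the diet without DEN the number called was 0 with limma on log2(TPM + 1), 2 on log2(TPM + 0.1), and 1 to 2 with 1 library left out. With DEN on the control diet it was 0 with limma on either scale and 0 to 1 with 1 library left out. In peritumoral liver against nonDEN-L-WD it was 2 with limma on either scale and 0 to 2 with 1 library left out. In peritumoral liver against DEN-L-CD it was 1 with DESeq2's Wald test, with DESeq2's size factors and with no filter on low counts, 5 and 6 with limma on log2(TPM + 1) and log2(TPM + 0.1), and 0 to 4 with 1 library left out. In tumors it was 0 to 7 against nonDEN-L-WD and 5 to 7 against DEN-L-CD with 1 library left out, and 3 against nonDEN-L-WD without the libraries high in pancreas markers, an alternative chosen after seeing the data. Of the ratio tests 0 to 1 passed.

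With the replicate number as a block, the count was 2 for the diet without DEN, 0 for peritumoral liver against DEN-L-CD and 4 for tumors against nonDEN-L-WD, and the block moved no other count by over 1.5 times. The labels do not say that a number marks a shared mouse, and same-numbered peritumoral and tumor libraries had correlations of their deviations from -0.23 to 0.34, so the numbers were not taken as pairs.

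Some small differences changed sign. In tumors against peritumoral liver, *H2-DMa* had -0.028 without the libraries high in pancreas markers and -0.12 to 0.17 with 1 library left out, and the log2 ratio of *Ciita* to *H2-Ab1* had -0.033 with 0.1 added to each TPM and -0.048 to 0.067 with 1 library left out. For the interaction, *H2-DMb1* had -0.12 with the replicate block, -0.047 with limma on log2(TPM + 0.1), -0.033 without the libraries high in pancreas markers and -0.20 to 0.26 with 1 library left out. *Ciita* had 0.063 there with limma on log2(TPM + 1). With 1 library left out, the interaction of *H2-Aa* ran from -0.039 to 0.37, of *H2-Ab1* from -0.057 to 0.49 and of *H2-Eb1* from -0.019 to 0.41. Between the single-factor groups, *H2-Aa* ran from -0.29 to 0.075, *H2-DMa* from -0.13 to 0.049, *H2-DMb1* from -0.36 to 0.013 and *Cd74* from -0.29 to 0.014. The ratio of *H2-Eb1* to *H2-Ab1* in peritumoral liver against nonDEN-L-CD ran from -0.028 to 0.069 on the log2 scale. The cause of these changes was not tested. *Ciita*, with 14 to 20 counts in nonDEN-L-CD libraries, is the gene that depth limits most.

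The number of all genes called differed by over 1.5 times between edgeR and limma on log2(TPM + 1), which differ in test, normalization and scale together. Given as edgeR, limma on log2(TPM + 1) and limma on log2(TPM + 0.1), it was 825, 300 and 659 for the diet without DEN, 734, 234 and 539 for DEN on the control diet, 39, 13 and 33 between the single-factor groups, and 430, 240 and 465 for the interaction. In peritumoral liver it was 2077, 973 and 2448 against nonDEN-L-CD, 432, 206 and 638 against nonDEN-L-WD, and 297, 180 and 708 against DEN-L-CD. In tumors it was 3168, 2018 and 3768 against nonDEN-L-CD, 2447, 1394 and 2652 against nonDEN-L-WD, 2229, 1390 and 2814 against DEN-L-CD, and 1235, 539 and 1020 against peritumoral liver. Other settings also moved these counts. Between the single-factor groups the count ran from 5 to 79 over all fits. It was 79 without DEN-T-WD replicate 5 and 17 without the libraries high in pancreas markers. Without the latter libraries the interaction count was 658.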
